A study of Mus musculus with 6 samples.

Results

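The TRIM family of ubiquitin ligases was followed through RNA-seq of primary wild-type mouse myeloid cells treated with TMAO (trimethylamine N-oxide, a metabolite formed from dietary choline and carnitine by gut bacteria and the liver) or kept as controls. Members were selected on their symbol, Trim followed by a number, and on their counts, at least 10 in at least 3 of the 6 libraries, among protein-coding genes. Of 58 such symbols in the table, which lists 25751 genes, 44 met this rule and 14 did not. The choice rests on counts over both groups, and the family itself was picked with earlier results of these libraries known, so the counts of members below describe the family and are no independent evidence of a direction. The members were divided by a hand-made list into 15 interferon-linked genes and 29 others. The 15 have a known link to interferon (induced by it, or acting in the sensing of viral nucleic acid that leads to it). That list is not complete, since Trim65, which acts on an RNA sensor, stands among the others. Counts for the 29 others therefore do not describe genes without any such link. All 44 members were tested for a difference.

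The comparison is between 3 libraries from cells labelled TMAO and 3 from cells labelled control, all wild type and all labelled 24 h. The deposited names call the TMAO libraries T-BMDM and the others Control, a difference in naming that is not explained. A difference in cell preparation, or in the sequencing platform, between the groups cannot be told apart from the treatment. No label says whether replicates are separate animals or cultures. Every p-value therefore weighs the group difference only against the scatter among these libraries, and that scatter may be technical. The libraries held between 37759007 and 38935691 counts with TMAO and between 38233772 and 41735109 in control cells, so counting error is small for all but the scarcest members. Values are given as CPM, which relates the counts of a gene to the size of its library after TMM scaling by edgeR, and a gene is called higher or lower where the edgeR quasi-likelihood test gave an adjusted p below 0.05 over all 14626 genes tested.

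TRIM proteins share an N-terminal arrangement of a RING finger, which passes ubiquitin to a substrate, B-boxes and a coiled coil through which the proteins pair, followed by a variable C-terminal part that chooses the target. Many carry a PRYSPRY domain there and act against viruses, either by binding viral proteins or by tuning the RIG-I, cGAS and Toll-like receptor pathways of macrophages, and a large share of these are themselves induced by interferon. Others work in the nucleus on chromatin, on organelle membranes or on the cytoskeleton. In the mouse, the relatives of the primate retrovirus restriction factor TRIM5 have multiplied into a cluster on chromosome 7.

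Across the family, 30 of 44 members fell with TMAO, 7 rose and 7 did not pass the test. The background was high: 65.7% of all genes tested were called, 33.0% higher and 32.7% lower. The CPM of the groups did not overlap for 37 members, 84.1% of them, against 71.0% of all genes tested. Falls of at least 2-fold were called for 14 members against 14.7% of all genes, and rises of at least 2-fold for 3 members against 15.7% of all genes. The median log2 fold change of the members was -0.76, and that of all genes tested was 0.005. In bulk RNA, fewer cells of a type and less RNA per cell cannot be told apart.

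The interferon-linked members were counted apart from the rest. Of 15 interferon-linked members, 14 fell and none rose, with 1, Trim34b, not past the test. Their log2 fold changes ran between -3.33 and -0.20 with a median of -1.42. Of the 29 others, 16 fell, 7 rose and 6 did not pass the test, with log2 fold changes between -1.83 and 2.38 and a median of -0.52. No test of the difference between these sets of genes was made, since both were chosen with results known.

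**Figure D1:**
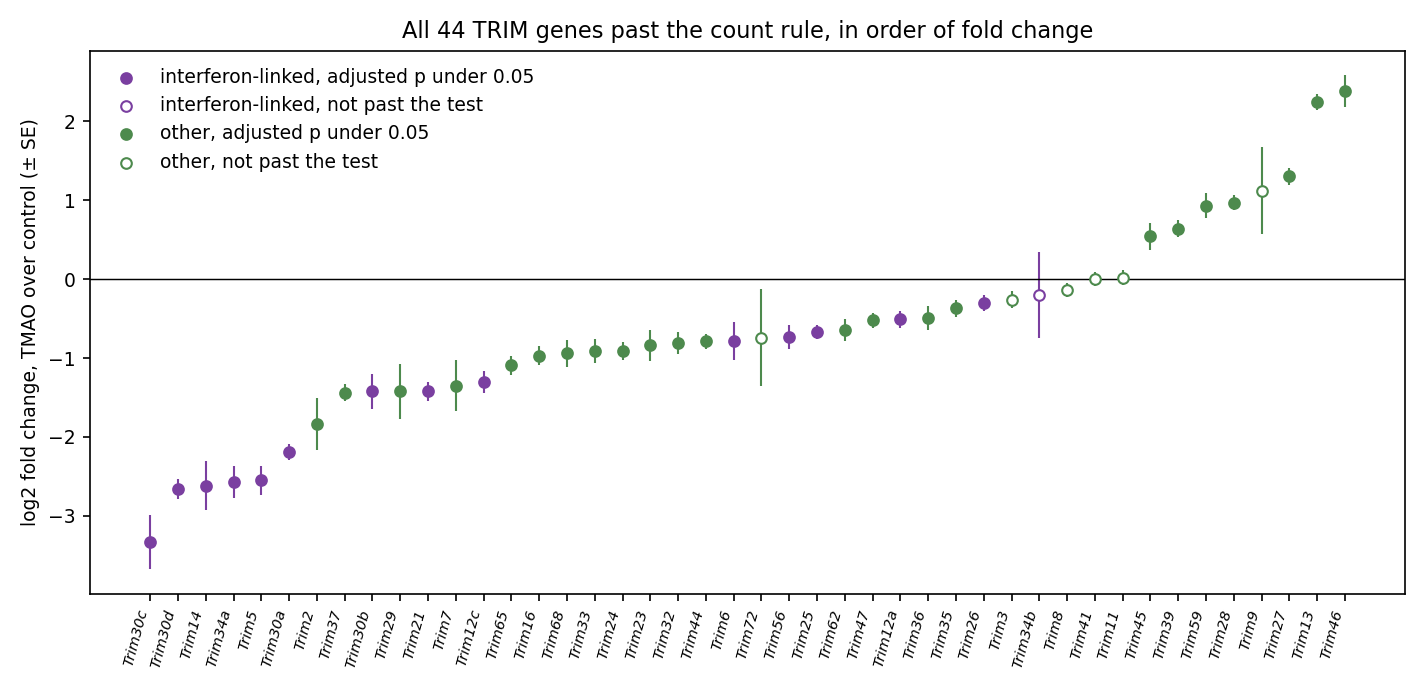
Log2 fold change of TMAO over control cells (y axis, ± SE by edgeR) for each of the 44 members, ordered by value along the x axis, with 3 libraries per group. Filled points passed the test and open points did not; the left end, from -3.33 for Trim30c to -2.19 for Trim30a, holds interferon-linked genes, and the right end, up to 2.38 for Trim46, holds members of the other set.

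Summed over the 15 interferon-linked members, the libraries held 342, 301 and 315 CPM with TMAO and 814, 697 and 752 CPM in control cells. The 29 other members summed to 868, 820.2 and 850.5 CPM with TMAO and 811, 793 and 802 CPM in control cells. The interferon-linked genes thus made up 28.3, 26.9 and 27% of all TRIM counts in the TMAO libraries, and 50.1, 46.8 and 48.4% in the control libraries. All 3 TMAO libraries lay below all 3 control libraries in the interferon-linked sum. In the other sum they lay above them, but with library size as the only scaling these groups overlapped, at 885, 789.6 and 838 CPM with TMAO and 825, 787 and 819.6 CPM in control cells. The other sum holds the rises of Trim28, Trim27 and Trim13, while 16 of its 29 genes fell.

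**Figure D2:**
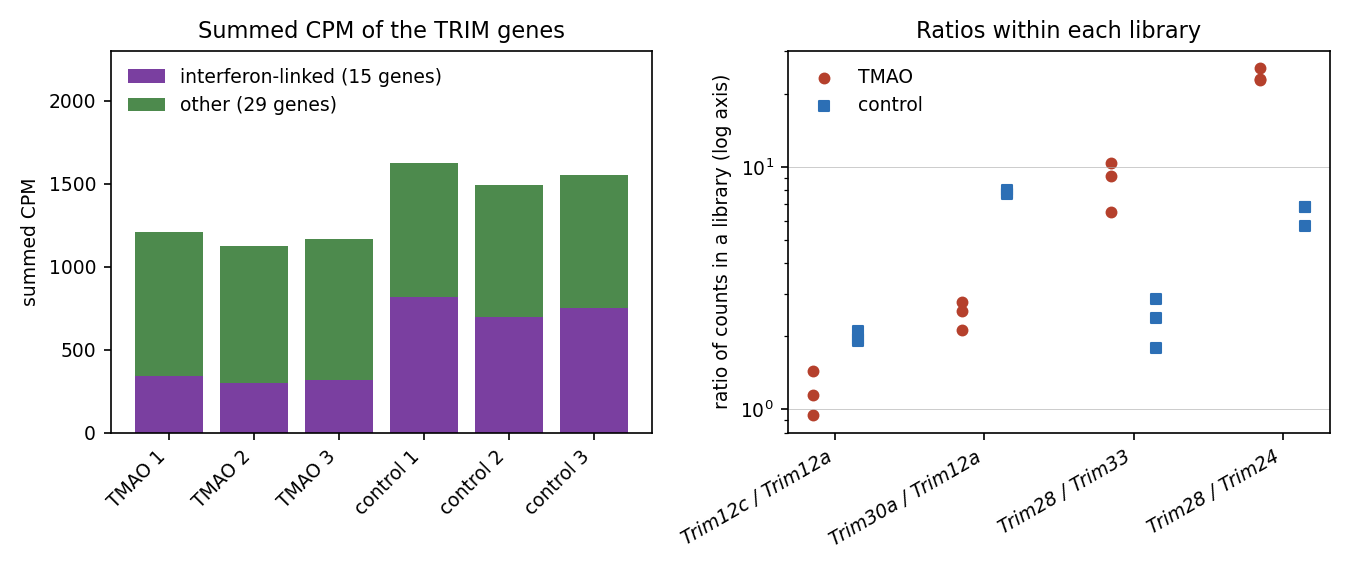
Left, summed CPM of the 15 interferon-linked and the 29 other TRIM genes in each library, as stacked bars from 0; the interferon-linked part is between 301 and 342 CPM with TMAO and between 697 and 814 CPM in control cells. Right, ratio of the counts of pairs of members within each library (log axis, 1 point per library), where the TMAO and control points of each of the 4 pairs do not overlap.

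The mouse TRIM5-related cluster on chromosome 7 gave 10 of the interferon-linked members. Of these, 9 fell (32.7% of all genes tested were called lower), and the median log2 fold change of the 10 was -1.81. Trim30a (ENSMUSG00000030921), which is induced by Toll-like receptor ligands in mouse macrophages and restrains signalling to NF-kB there, had 42.9, 40.9 and 37.9 CPM with TMAO and 202, 173 and 182 CPM in control cells. Its fall was 4.58-fold (log2 fold change -2.19, SE 0.096, adjusted p = 4.63e-08 by edgeR), and the groups did not overlap. Trim30d, its closest copy in these data by shared sequence, had 13.4, 9.99 and 10.2 CPM with TMAO and 76.1, 64 and 72.1 CPM in control cells (log2 fold change -2.66, SE 0.13, adjusted p = 1.16e-07 by edgeR). Within each library Trim30a had 3.2, 4.09 and 3.71 times the counts of Trim30d with TMAO, and 2.65, 2.7 and 2.52 times in control cells, with no overlap of the groups.

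Both of the scarcer Trim30 genes were lower too. Trim30c had 0.656, 0.22 and 0.6 CPM with TMAO and 6.41, 3.99 and 4.7 CPM in control cells, the steepest fall of the family at 10.1-fold (log2 fold change -3.33, SE 0.34, adjusted p = 1.32e-05 by edgeR). Trim30b had 1.34, 1.49 and 1.67 CPM with TMAO and 5.07, 3.31 and 3.63 CPM in control cells (log2 fold change -1.42, SE 0.22, adjusted p = 0.000267 by edgeR). No library of either group crossed into the other for these genes.

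The Trim5, Trim12 and Trim34 genes of the same cluster are the nearest mouse relatives of primate TRIM5 and TRIM34, which bind retroviral capsids. Trim5 had 2.75, 3.33 and 2.53 CPM with TMAO and 20.5, 15.1 and 14.8 CPM in control cells, 5.86-fold lower (log2 fold change -2.55, SE 0.18, adjusted p = 9.31e-07 by edgeR). Trim12c had 17.7, 23 and 16.8 CPM with TMAO and 53, 43.2 and 45.1 CPM in control cells (log2 fold change -1.30, SE 0.14, adjusted p = 1.6e-05 by edgeR). Trim12a moved least among Trim5, Trim12a and Trim12c, with 15.5, 16.1 and 17.9 CPM with TMAO and 25.1, 22.1 and 23.6 CPM in control cells (log2 fold change -0.51, SE 0.11, adjusted p = 0.00155 by edgeR). Once a trend of fold change on GC content was taken out, the call of Trim12a was lost (adjusted p = 0.238 by edgeR, at a log2 fold change of -0.15).

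The unequal size of these falls shows inside each library, where no scaling between libraries enters. The ratio of Trim12c to Trim12a counts was 1.14, 1.43 and 0.943 with TMAO and 2.11, 1.95 and 1.91 in control cells. For Trim5 over Trim12a it was 0.177, 0.206 and 0.142 with TMAO and 0.817, 0.682 and 0.63 in control cells. Trim30a over Trim12a stood at 2.76, 2.53 and 2.12 with TMAO and at 8.05, 7.81 and 7.72 in control cells. In each of these pairs the TMAO libraries lay below all control libraries, so Trim12a made up more of the pair with TMAO.

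Trim34a had 6.96, 3.74 and 5.19 CPM with TMAO and 35.8, 30 and 28.7 CPM in control cells, 5.93-fold lower (log2 fold change -2.57, SE 0.20, adjusted p = 2.04e-06 by edgeR). Its copy Trim34b was scarce, with 0.555, 0.138 and 0.521 CPM with TMAO and 0.283, 0.435 and 0.678 CPM in control cells, and the groups overlapped (log2 fold change -0.20, SE 0.54, adjusted p = 0.767 by edgeR). Trim6, which in human cells makes free ubiquitin chains that activate the kinase IKK-epsilon, had 1.54, 1.13 and 1.43 CPM with TMAO and 2.34, 1.98 and 2.74 CPM in control cells. Its fall of 1.72-fold passed the test (log2 fold change -0.78, SE 0.24, adjusted p = 0.0139 by edgeR) but not without control replicate 3 (adjusted p = 0.0547 by edgeR).

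Copies of this cluster can exchange reads in counting, and how reads with several matches were treated is not given in the sources used here. Of all stretches of 100 bases in the longest transcript, 22.6% of those of Trim34a and 32.6% of those of Trim34b were found in the other gene. The share was 12.7% for Trim5 and 7.64% for Trim12c, in stretches found in each other, in Trim12a or in a further annotated gene outside the family. It was 4.79% for Trim30a and 5.53% for Trim30d, which share with each other. Sums over the copies, which do not depend on how reads were split between them but would miss reads discarded in counting, were lower in every TMAO library as well. Trim30a and Trim30d together gave 56.3, 50.8 and 48.2 CPM with TMAO and 278, 237 and 254 CPM in control cells. Trim5, Trim12a and Trim12c together gave 36, 42.5 and 37.2 CPM with TMAO and 98.5, 80.5 and 83.5 CPM in control cells, and Trim34a and Trim34b together 7.52, 3.88 and 5.71 CPM with TMAO and 36, 30.4 and 29.4 CPM in control cells. By the annotation used here, 23.5% of the exon bases of Trim34a also lie under an antisense gene.

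**Figure D3:**
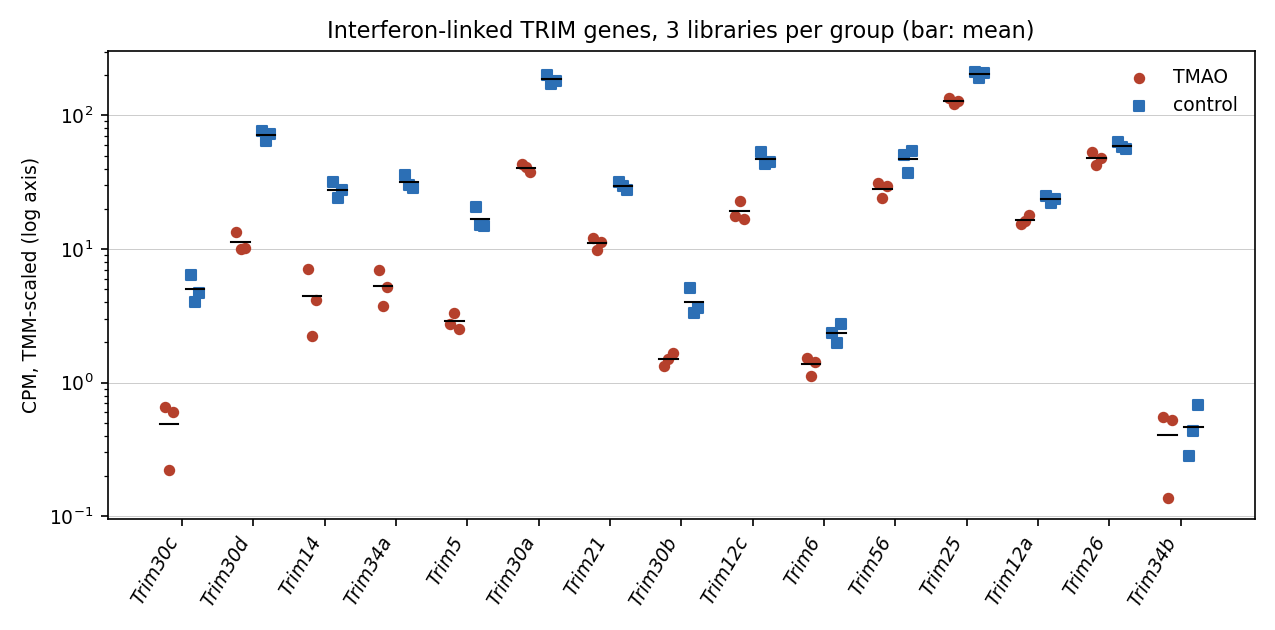
CPM (log axis) of the 15 interferon-linked TRIM genes in each library, with TMAO libraries as circles to the left of control libraries as squares, and a bar at each mean. The groups are separate for 14 genes and overlap for Trim34b, and the gap narrows from Trim30c on the left to Trim26 near the right.

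Outside the chromosome 7 cluster, 5 of 5 interferon-linked members fell (32.7% of all genes tested were called lower), with a median log2 fold change of -0.73. With a trend of fold change on transcript length taken out, 3 of them were called lower. Trim14, which lacks a RING finger and works as an adaptor in MAVS signalling and as a stabiliser of cGAS, had 7.11, 2.23 and 4.12 CPM with TMAO and 31.9, 23.9 and 27.6 CPM in control cells. It was 6.17-fold lower (log2 fold change -2.62, SE 0.31, adjusted p = 4.02e-05 by edgeR), with a wide spread between the TMAO libraries. On the opposite strand 31.3% of its exon bases lie under Nans, which rose to 67.2, 82.7 and 77.2 CPM with TMAO, against 53.1, 53.6 and 42.1 CPM in control cells (log2 fold change 0.61, SE 0.12, adjusted p = 0.00113 by edgeR). The part of Nans reads in the count of Trim14 was not tested.

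Trim21, the cytosolic receptor for antibody-coated viruses, had 12.1, 9.82 and 11.2 CPM with TMAO and 31.6, 29.4 and 27.6 CPM in control cells, 2.68-fold lower (log2 fold change -1.42, SE 0.12, adjusted p = 2.77e-06 by edgeR). It also lies on chromosome 7 but is not counted in the TRIM5-related cluster. Trim25, which attaches ubiquitin chains to RIG-I, had 135, 122 and 127 CPM with TMAO and 211, 192 and 208 CPM in control cells (log2 fold change -0.67, SE 0.084, adjusted p = 5.42e-05 by edgeR). That is a fall of 1.59-fold, with no overlap of the groups. Once a trend of fold change on transcript length was taken out, Trim25 was still called, at a log2 fold change of -0.23 (adjusted p = 0.0337 by edgeR).

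Trim56, which acts on STING and TRIF signalling, had 31.4, 24.2 and 29.4 CPM with TMAO and 50.4, 36.9 and 54 CPM in control cells (log2 fold change -0.73, SE 0.15, adjusted p = 0.00155 by edgeR). Its longest transcript has 9279 bases, the most among the members, and in these libraries long genes tended lower. The longest 20% of genes had a median log2 fold change of -0.527 and the shortest 20% one of 0.491. Once that trend was taken out, Trim56 did not differ beyond its error, at a log2 fold change of 0.006 (adjusted p = 0.975 by edgeR). Trim26, a gene of the major histocompatibility region, had 53, 42.8 and 48.3 CPM with TMAO and 62.8, 58.2 and 56.3 CPM in control cells (log2 fold change -0.30, SE 0.10, adjusted p = 0.0243 by edgeR). That small fall was not called without TMAO replicate 2 (adjusted p = 0.0698 by edgeR), without TMAO replicate 3 (0.0706), without control replicate 1 (0.101) or once the length trend was taken out (adjusted p = 0.719, at a log2 fold change of -0.045). Trim38 was on the list of interferon-linked genes and is not analysed here.

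The promoter sequences of the interferon-linked members were then read, since interferon acts on most of its targets through the interferon-stimulated response element. Its core was searched as GAAANNGAA on either strand in windows of 300 bases, from 250 before to 50 after each annotated transcript start, taken from RefSeq on build GRCm38.p6. A window was given for 14 of the 15 interferon-linked members and 20 of the 29 others, and several genes have more than 1. The core stood in 10 of 14 interferon-linked members (71.4%) and in 2 of 20 others (10%), Trim2 and Trim7, against 8.98% of 10250 genes tested with a window. The stretches below are shown because Trim30a and Trim30d, and Trim5 and the Trim12 genes, carry the core in identical or near-identical surroundings. The stretch of Trim26 is left out. The stretches of Trim34a, Trim34b, Trim25 and Trim21 are given for comparison. Each runs 5′ to 3′ in the direction of its gene, with the core in capitals, and in all but Trim21 the core is on the opposite strand and so reads as its reverse complement.
Trim30a, upstream start, chr7:104465210-104465238, minus strand: gttctttagtTTCTTTTTCtcagttcctg
Trim30a, downstream start, chr7:104446104-104446132, minus strand: tgtttttagtTTCTTTTTCtcagttcctg
Trim30d, chr7:104507871-104507899, minus strand: gttctttagtTTCTTTTTCtcagttcctg
Trim5, chr7:104288136-104288164, minus strand: gagttgtggtTTCTGTTTCatttccagag
Trim12a, chr7:104315466-104315494, minus strand: gagttgtggtTTCTGTTTCatttccagag
Trim12c, chr7:104353359-104353387, minus strand: gagttgtggtTTCTGTTTCatttccagct
Trim34a, chr7:104244458-104244486, plus strand: ggtttggagtTTCAGTTTCttttctctgc
Trim34b, chr7:104329250-104329278, plus strand: tccttctgccTTCTCTTTCctgtgccacc
Trim25, chr11:88999384-88999412, plus strand: gcccctcctgTTCAGTTTCgattccttcc
Trim21, chr7:102565448-102565476, minus strand: ctgagagGAAACTGAAAGTGAAatttgga

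Trim30a has windows at a pair of annotated starts. At the upstream start it carried the same 29 bases as Trim30d, with the core beginning at position -35 in Trim30a and -40 in Trim30d, and at the downstream start the core began at position 3 after other flanking bases. Both genes fell more than 4-fold. Trim5 and Trim12a also carried the same 29 bases, beginning at position -48 in Trim5 and at position 11 of the transcript in Trim12a, yet Trim5 fell 5.86-fold and Trim12a 1.43-fold. In Trim34a the core began at position 11 and in Trim34b at position -211, in other surroundings, and of this pair Trim34a alone was called lower. In Trim21 a pair of overlapping cores begins at positions 13 and 19, and in Trim26 such a pair begins at positions -159 and -153. A match of letters is a description of the sequence and was not tested as a binding site.

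The 250 bases before the upstream start of Trim30a, the most abundant TRIM gene per length in control cells, are given as the longer context of its core (chr7:104465194-104465443, minus strand, GRCm38.p6, core in capitals).
Trim30a upstream: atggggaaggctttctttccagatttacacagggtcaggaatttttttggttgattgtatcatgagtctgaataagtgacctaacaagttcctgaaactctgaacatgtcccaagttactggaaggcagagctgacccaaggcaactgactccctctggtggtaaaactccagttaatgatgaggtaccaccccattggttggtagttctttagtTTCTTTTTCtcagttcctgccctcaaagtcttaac

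Falls were called among members with and without the core. Interferon-linked members with the core had a median log2 fold change of -1.36 (9 of 10 lower), and the 4 without it, Trim6, Trim30b, Trim30c and Trim56, had a median of -1.10 (4 of 4 lower). Trim30c, with the steepest fall of the family, held no core in its window. Among the others, Trim2 and Trim7, which held it, had log2 fold changes of -1.83 and -1.35, and the 18 without it had a median of -0.26, with 8 lower and 7 higher. The gamma-activated site TTCNNNGAA, searched the same way, was found in 1 of 14 interferon-linked members, Trim30c, and in 2 of 20 others, Trim45 and Trim46, against 8.17% of the genes tested.

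**Figure D4:**
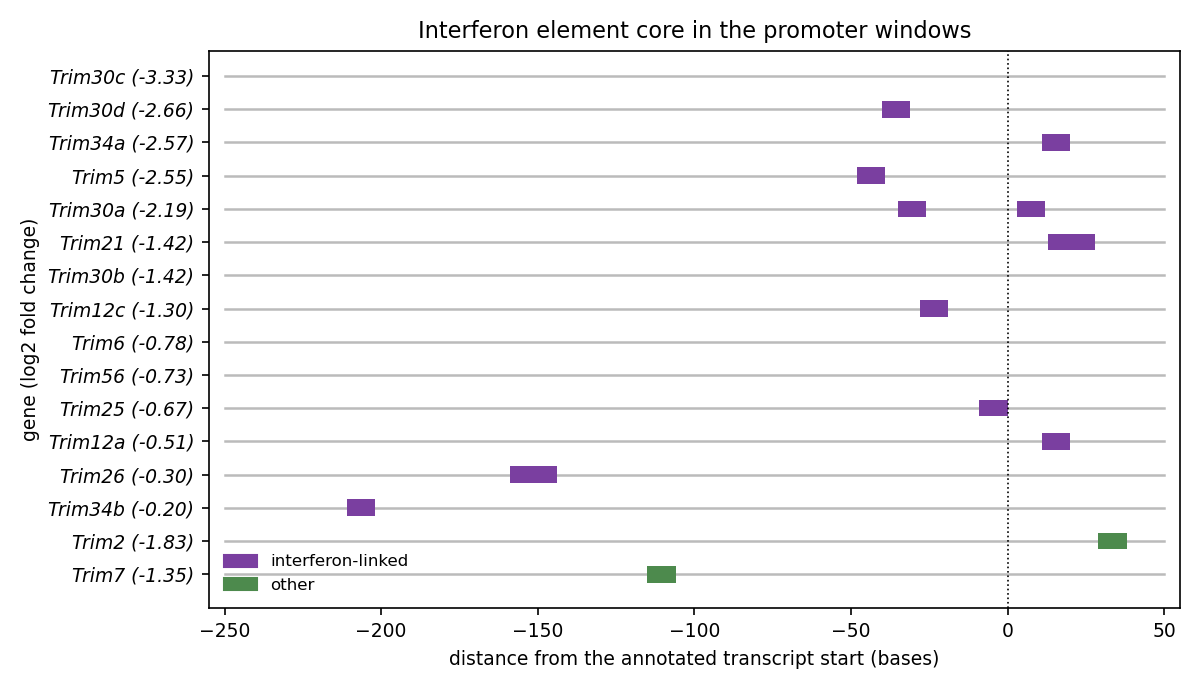
Position of the interferon response element core (boxes) in the promoter windows, in bases from the annotated transcript start (x axis, dotted line at 0), for interferon-linked members with a window and for the 2 others that hold it, with log2 fold changes in brackets. In 8 of the 10 interferon-linked genes with a core, the boxes begin between positions -48 and 19, and those of Trim26 and Trim34b lie further upstream.

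The nuclear members moved in both directions. Trim28 (also called KAP1), the corepressor that KRAB zinc finger proteins recruit to silence retroelements, had 199, 217 and 218 CPM with TMAO and 111, 116 and 95.3 CPM in control cells, 1.97-fold higher (log2 fold change 0.97, SE 0.097, adjusted p = 1.08e-05 by edgeR). Its relatives in the same subfamily were lower. Trim24, a cofactor of nuclear receptors, had 8.65, 9.46 and 8.53 CPM with TMAO and 16.2, 17 and 16.6 CPM in control cells (log2 fold change -0.91, SE 0.11, adjusted p = 4.6e-05 by edgeR). Trim33, a regulator of SMAD and PU.1 activity, had 30.6, 23.6 and 21 CPM with TMAO and 46.7, 40.6 and 53.7 CPM in control cells (log2 fold change -0.91, SE 0.15, adjusted p = 0.000381 by edgeR). Trim33 has a longest transcript of 8875 bases, and its call was lost once the length trend was taken out (adjusted p = 0.294 by edgeR, at a log2 fold change of -0.19).

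The balance between Trim28 and these relatives can be read within libraries, though a ratio does not show which of its genes moved. The length trend was not taken out of these ratios. Trim28 had 23, 22.9 and 25.6 times the counts of Trim24 with TMAO and 6.84, 6.83 and 5.73 times in control cells. Over Trim33 the ratio was 6.51, 9.19 and 10.4 with TMAO and 2.38, 2.86 and 1.78 in control cells. Trim28 alone supplied 16.5, 19.3 and 18.7% of all TRIM counts with TMAO and 6.84, 7.79 and 6.14% in control cells. Trim27, a nuclear and endosomal ligase that partners MAGE proteins, had 70.5, 80 and 79.8 CPM with TMAO and 30.2, 35.4 and 27.9 CPM in control cells, 2.46-fold higher (log2 fold change 1.30, SE 0.11, adjusted p = 3.82e-06 by edgeR).

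Most genes linked to Trim28, all but Trp53 of them through gene silencing, were lower. Of 12 such genes, 10 fell (32.7% of all genes tested were called lower) and 2, Uhrf1 and Trp53, rose. The median over the 12 was -0.62 on the log2 scale. The smallest p-values belonged to Uhrf1, Trp53 and Cbx3. Uhrf1, which brings the DNA methyltransferase to newly copied DNA, had 20.9, 15.2 and 17.8 CPM with TMAO and 4.63, 4.33 and 3.56 CPM in control cells (log2 fold change 2.11, SE 0.16, adjusted p = 1.82e-06 by edgeR). Trp53, the tumour suppressor p53, had 103, 104 and 102 CPM with TMAO and 60.3, 59.4 and 55.4 CPM in control cells (log2 fold change 0.82, SE 0.082, adjusted p = 1.09e-05 by edgeR). Cbx3, an HP1 protein bound by Trim28, had 11.7, 8.58 and 9.49 CPM with TMAO and 23.3, 23.2 and 29.3 CPM in control cells (log2 fold change -1.35, SE 0.15, adjusted p = 2.07e-05 by edgeR). Uhrf1 is a gene of dividing cells, and 11 of 12 cell division markers rose in the same libraries (33.0% of all genes tested were called higher). These markers summed to between 622 and 685 CPM with TMAO and between 292 and 342 CPM in control cells. Their part in these differences was not tested.

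Both members listed as anchored in membranes rose (33.0% of all genes tested were called higher). Trim13, which sits in the endoplasmic reticulum and acts in the removal of misfolded proteins and in autophagy, had 63.1, 73.3 and 71.2 CPM with TMAO and 15.2, 15.1 and 13.7 CPM in control cells. At 4.72-fold (log2 fold change 2.24, SE 0.10, adjusted p = 5.74e-08 by edgeR), this was the rise with the smallest p-value in the family. Trim59 had 6.48, 7.62 and 7.07 CPM with TMAO and 3.19, 3.62 and 4.29 CPM in control cells (log2 fold change 0.93, SE 0.16, adjusted p = 0.000477 by edgeR). Within libraries Trim13 had 9.73, 9.62 and 10.1 times the counts of Trim59 with TMAO and 4.75, 4.17 and 3.2 times in control cells.

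Trim46, which bundles microtubules at the start of the axon in neurons, was scarce but had the largest rise of the family. It had 6.13, 5.14 and 5.14 CPM with TMAO and 1.24, 1.01 and 0.896 CPM in control cells, 5.21-fold higher (log2 fold change 2.38, SE 0.20, adjusted p = 3.16e-06 by edgeR). On the opposite strand 6.3% of its exon bases lie under Krtcap2, which gave many more reads and rose as well, to 103, 157 and 128 CPM with TMAO, against 40.8, 49.6 and 38.3 CPM in control cells (log2 fold change 1.59, SE 0.16, adjusted p = 9.99e-06 by edgeR). The strand setting of the counting is not given in the sources used here, and the part of Krtcap2 reads in the count of Trim46 was not tested.

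**Figure D5:**
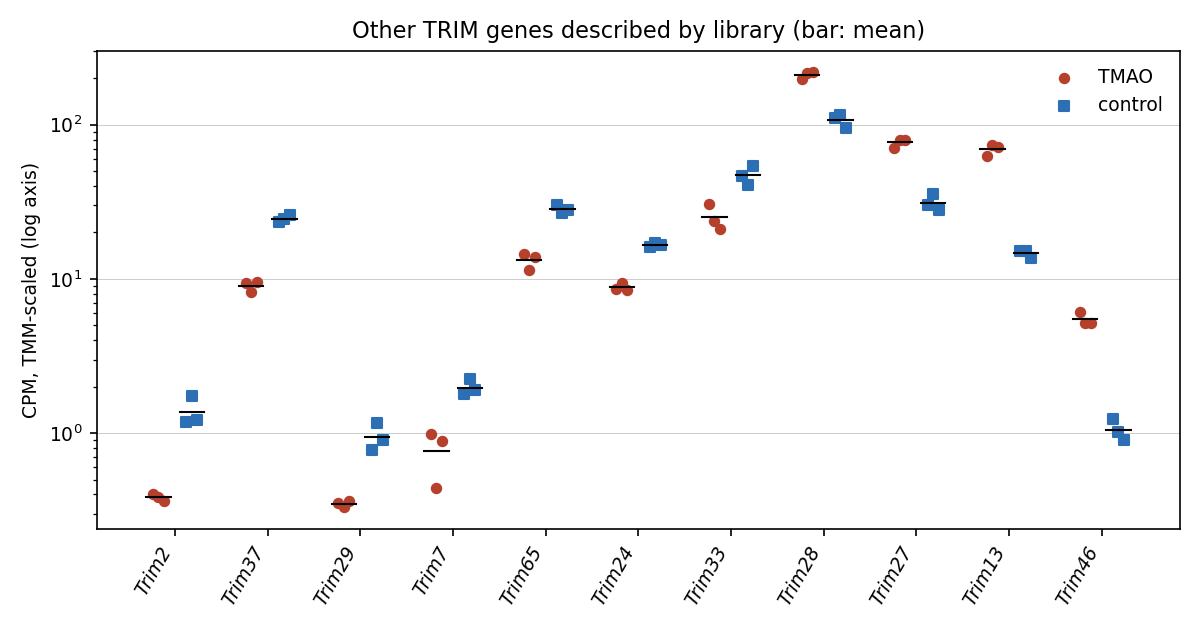
CPM (log axis) in each library of the 11 members outside the interferon-linked set that are given by library in the text on size of change or nuclear role, with TMAO libraries as circles to the left of control libraries as squares and a bar at each mean. Trim2, Trim37, Trim29, Trim7, Trim65, Trim24 and Trim33 are lower with TMAO, and Trim28, Trim27, Trim13 and Trim46 are higher, with no overlap of the groups.

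Of the 16 others that fell, 5 did so by at least 2-fold. Trim37, a ligase of peroxisomes and centrioles, had 9.46, 8.17 and 9.54 CPM with TMAO and 23.4, 24.3 and 25.9 CPM in control cells (log2 fold change -1.44, SE 0.11, adjusted p = 2.24e-06 by edgeR). Trim65, which in human cells ubiquitinates the RNA sensor MDA5, had 14.5, 11.5 and 13.8 CPM with TMAO and 30.1, 26.8 and 27.8 CPM in control cells (log2 fold change -1.09, SE 0.12, adjusted p = 1.89e-05 by edgeR). Neither showed an overlap of the groups. Trim65 overlaps its neighbour Trim47 on the same strand over 3.82% of its exon bases, and Trim47 was lower too, with 19.5, 19.7 and 20 CPM with TMAO and 26.5, 30 and 28.6 CPM in control cells (log2 fold change -0.52, SE 0.095, adjusted p = 0.000699 by edgeR).

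The remaining 3 of these were scarce. Trim2, a ligase with NHL repeats known from neurons, had 0.404, 0.385 and 0.365 CPM with TMAO and 1.18, 1.74 and 1.21 CPM in control cells (log2 fold change -1.83, SE 0.33, adjusted p = 0.000624 by edgeR). Trim29, which lacks a RING finger, had 0.353, 0.33 and 0.365 CPM with TMAO and 0.772, 1.16 and 0.896 CPM in control cells (log2 fold change -1.42, SE 0.35, adjusted p = 0.00444 by edgeR). Trim7, which binds glycogenin, had 0.984, 0.44 and 0.886 CPM with TMAO and 1.78, 2.25 and 1.89 CPM in control cells (log2 fold change -1.35, SE 0.32, adjusted p = 0.00345 by edgeR). The groups did not overlap for any of them, but each rests on few reads, and with the length trend taken out Trim2 stood at a log2 fold change of -1.21.

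The rest of the 16, Trim24, Trim33 and Trim47 among them, fell by less than 2-fold. The 4 measured members known to lack a RING finger, Trim14, Trim16, Trim29 and Trim44, all fell (32.7% of all genes tested were called lower). Among these, Trim14 is also counted in the interferon-linked set. Trim16, which helps to clear damaged lysosomes, averaged 7.09 ± 0.249 CPM with TMAO and 13.9 ± 0.747 CPM in control cells, and Trim44 averaged 59.1 ± 3.98 CPM with TMAO and 102 ± 9.7 CPM in control cells (SD, n = 3 each). Their log2 fold changes were -0.97 (SE 0.12, adjusted p = 3.9e-05 by edgeR) and -0.79 (SE 0.099, adjusted p = 5.51e-05 by edgeR). Of the 3 measured NHL-repeat members, Trim2 and Trim32 fell and Trim3 did not pass the test, with Trim32 averaging 7.35 ± 1.2 CPM with TMAO and 12.9 ± 0.811 CPM in control cells (SD, n = 3 each). Trim23, which carries an ARF-type GTPase domain, had a log2 fold change of -0.84, Trim68 of -0.94, Trim62 of -0.64, Trim36 of -0.49 and Trim35 of -0.37, all called lower by edgeR. Of these, Trim35 and Trim36 were not called once the length trend was taken out (adjusted p = 0.071 and 0.267 by edgeR), nor Trim23 and Trim36 once the GC trend was (0.0652 and 0.101). Trim36 was also not called without TMAO replicate 3 (adjusted p = 0.0656 by edgeR) or without control replicate 3 (0.0578). With the length trend taken out, Trim44 was still called, at a log2 fold change of -0.35.

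Beside Trim46, Trim13, Trim27, Trim28 and Trim59, 2 members rose. Trim39 averaged 24.9 ± 2.85 CPM with TMAO and 16 ± 0.815 CPM in control cells, and Trim45 averaged 4.2 ± 0.279 CPM with TMAO and 2.89 ± 0.352 CPM in control cells (SD, n = 3 each), with log2 fold changes of 0.64 and 0.54. Trim45 was not called without control replicate 3 (adjusted p = 0.0677 by edgeR). The 6 others that did not pass the test were Trim3, Trim8, Trim9, Trim11, Trim41 and Trim72. Trim41 averaged 65.4 ± 4.55 CPM with TMAO and 65.4 ± 1.34 CPM in control cells, and Trim11 averaged 24.7 ± 1.83 CPM with TMAO and 24.4 ± 1.04 CPM in control cells (SD, n = 3 each), so the groups lay within each other's spread. Trim8, a regulator of cytokine signalling, averaged 69.4 ± 4.46 CPM with TMAO and 76.4 ± 3.24 CPM in control cells (SD, n = 3 each; log2 fold change -0.14, SE 0.088, adjusted p = 0.186 by edgeR). Once the GC trend was taken out, Trim3, Trim8 and Trim41 were called lower, at log2 fold changes of -0.50, -0.43 and -0.26 (adjusted p = 0.00308, 0.00156 and 0.0218 by edgeR).

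Members at the edge of the count rule were too scarce to read. Trim9 had 22, 8 and 18 counts with TMAO and 11, 8 and 4 in control cells, and Trim72, a membrane repair protein of muscle, had 10, 7 and 6 counts with TMAO and 15, 4 and 22 in control cells, each reaching 10 in 3 libraries of both groups together. Just outside the rule, Trim66 had 8, 10 and 4 counts with TMAO and 4, 4 and 4 in control cells, and Trim15, Trim17 and Trim54 likewise reached 10 in 1 library. The other 10 symbols below the rule, such as Trim31, Trim40 and the Trim43 genes, reached 10 counts in no library.

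Per length of transcript, the order of the members was different in the groups. With TMAO the highest levels were those of Trim28, Trim13 and Trim25 at 65.1, 42.7 and 22.9 CPM per kilobase, and Trim30a stood at 10.8. In control cells they were those of Trim30a, Trim25 and Trim28 at 49.2, 36.5 and 33.1 CPM per kilobase, and Trim13 stood at 9.05. Levels of genes close in this order, such as Trim8 at 19.4 and Trim41 at 19.1 CPM per kilobase with TMAO, lie within the spread between libraries.

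TRIM-type genes that carry another name were read beside the family. Pml, the organiser of nuclear bodies and an interferon-induced gene, had 20.4, 16.4 and 18.4 CPM with TMAO and 63.2, 57.4 and 59.1 CPM in control cells (log2 fold change -1.70, SE 0.11, adjusted p = 4.57e-07 by edgeR). Mefv, which encodes the inflammasome sensor pyrin, had 122, 104 and 130.5 CPM with TMAO and 92.5, 85.8 and 99.7 CPM in control cells (log2 fold change 0.36, SE 0.10, adjusted p = 0.0107 by edgeR). Mid1 was not called (log2 fold change 0.074, SE 0.26, adjusted p = 0.816 by edgeR), and Mid2 was too scarce to test.

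The pathways in which the interferon-linked members work were also lower in part. Of 16 genes of RNA and DNA sensing, 9 fell and 3 rose, where 32.7% of all genes tested were called lower and 33.0% higher. The other 4 did not pass the test, and the median log2 fold change of the 16 was -0.72. The CPM of the groups did not overlap for 12 of the 16, against 71.0% of all genes tested, so the list stands apart in direction more than in separation. Among the 16, Rigi, Irf7 and Tlr3 had the smallest p-values. Rigi, the RNA sensor that Trim25 modifies, had 40.8, 36 and 36.7 CPM with TMAO and 184, 149 and 152 CPM in control cells (log2 fold change -2.09, SE 0.11, adjusted p = 1.42e-07 by edgeR). Irf7, the transcription factor that amplifies interferon production, had 45.7, 43.9 and 45.5 CPM with TMAO and 391, 324 and 239.6 CPM in control cells (log2 fold change -2.82, SE 0.16, adjusted p = 2.53e-07 by edgeR). Tlr3, the endosomal receptor for double-stranded RNA, had 2.78, 1.73 and 2.63 CPM with TMAO and 22.8, 18.8 and 21.4 CPM in control cells (log2 fold change -3.14, SE 0.18, adjusted p = 2.81e-07 by edgeR).

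The fall did not extend to the whole pathway. Irf3, the constitutive interferon regulatory factor, rose to 49.1, 60.3 and 59.6 CPM with TMAO, against 31.7, 36.8 and 32.8 CPM in control cells (log2 fold change 0.74, SE 0.11, adjusted p = 0.000172 by edgeR), and the kinase gene Ikbke (log2 fold change 0.57) and Traf3 (0.37) rose as well. The DNA sensor Cgas, the kinase Tbk1, Traf6 and Ticam1 did not pass the test. Of 25 genes of the type I interferon response, 23 fell (92.0%, against 32.7% of all genes tested), Mx2 rose and Isg15 did not pass the test. Their median was -1.47 on the log2 scale. The smallest p-values were those of Oas3, Oasl2 and Ddx60, with log2 fold changes of -3.56 (SE 0.12), -3.05 (SE 0.11) and -3.61 (SE 0.15), all called by edgeR.

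Markers of other cells moved in the same libraries, where 33.0% of all genes tested were called higher and 32.7% lower. Of 18 neutrophil markers 15 rose and 2 fell, summing to between 4557 and 5817 CPM with TMAO and between 490.2 and 537 CPM in control cells. Of 12 genes listed as monocyte markers 11 rose and 1 fell, summing to between 1150 and 1209 CPM with TMAO and between 212 and 271 CPM in control cells. That list includes Cd177 (log2 fold change 5.31 by edgeR), which is better known from neutrophils. Of 14 macrophage markers 5 rose and 6 fell, summing to between 43281 and 52603 CPM with TMAO and between 44944 and 49851 CPM in control cells. This sum is carried by Lyz2, at between 32893 and 41891 CPM in every library, which with Itgam did not pass the test. Cd14 rose (log2 fold change 2.84 by edgeR), C1qa, C1qb, C1qc and Mrc1 rose by less, Mertk and Fcgr1 fell (-3.31 and -2.07), and Adgre1 fell to 592, 458 and 528 CPM with TMAO, against 1751, 1641 and 1722 CPM in control cells. Of the tested markers of other lineages, 6 of 6 for megakaryocytes, 6 of 7 for B cells, 5 of 8 for dendritic cells, 2 of 10 for stroma and muscle, 1 of 2 for T and NK cells and 1 of 3 for erythroid cells rose. In the last 4 of these lists Itgax (log2 fold change -1.30), Ttn (-0.85), Cd4 (-2.19) and Hbb-bs (-1.44) fell. The megakaryocyte markers summed to between 358 and 539.9 CPM with TMAO and between 43 and 65.6 CPM in control cells, and the dendritic markers to between 32.2 and 36.8 CPM with TMAO and between 58.8 and 60.8 CPM in control cells. Itgax made up most of the dendritic sum, averaging 23.1 CPM with TMAO and 56.9 CPM in control cells, while Flt3, Zbtb46, Xcr1, Siglech and Ccr7 rose. B cell markers summed to between 33.1 and 35.5 CPM with TMAO and between 9.06 and 11.4 CPM in control cells, and the other 3 lists to between 2.01 and 22.3 CPM with TMAO and between 1.64 and 20.2 CPM in control cells. Elane, a defining gene of neutrophil precursors, had 198, 268 and 237 CPM with TMAO and 0.206, 0 and 0.0969 CPM in control cells. Ly6g, a gene of mature neutrophils, had 0.706, 0.495 and 0.626 CPM with TMAO and 0.0515, 0 and 0.0484 CPM in control cells, and was called higher by edgeR. The part of these markers in the TRIM differences was not tested.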

How the data were processed

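RNA-seq of 6 libraries was analysed, 3 of TMAO-treated and 3 of control cells. Per the labels' protocols, RNA was extracted with TRIzol, selected with oligo(dT), fragmented and primed with random hexamers for paired-end sequencing. The authors deposited raw counts per Ensembl gene, whole numbers with no normalization. Per the submitters' processing notes, the build is GRCm39. Not given in the sources used here are the aligner, the counter, its strand setting and its annotation. Symbols, transcript lengths and exon overlaps came from GENCODE M21 (GRCm38), where 25386 of 25751 IDs matched.

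Genes were tested with edgeR 4.0.16 (R 4.3.3; limma 3.58.1): filterByExpr, TMM scaling, the quasi-likelihood test and two-sided Benjamini-Hochberg adjusted p over 14626 genes, with no covariates. The SE is the log2 fold change over the square root of F. The script was tested on simulated data. Alternatives covered scaling, count filters, DESeq2 1.42.0, limma-voom, a replicate block, length and GC trends and each library left out. Library pairs of a group had log2 CPM correlations of 0.9902 or more and differed beyond sampling noise.

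Members and gene lists were chosen with earlier results of these data known. Given by library were every interferon-linked member, other members called with a fold of at least 2 and no overlap (at most 8 per direction), and nuclear or TRIM-type genes averaging at least 10 CPM, and from each pathway list the 3 genes with the smallest p. Genes named beyond that rule were chosen after their values were seen.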

Additional observations from a re-analysis of the deposited data

How the results depend on the processing

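Over the 44 members and up to 19 alternatives each, 794 outcomes kept direction and call, 14 lost the call, 6 gained it and 17 changed sign. All changes of sign were in Trim11, Trim34b and Trim41, which were not called as reported, and in Trim56. Trim41 had log2 fold changes of 0.0027 with DESeq2-type factors, 0.03 with upper-quartile factors, 0.007 without the 20 most abundant genes, 0.011 with at least 1 CPM in 3 libraries, 0.0028 with DESeq2 and 0.076 with the length trend removed, was called lower at -0.26 with the GC trend removed, and lay between -0.051 and 0.053 with a replicate left out. Trim11 had -0.0095 with library size only, -0.0029 with no count filter and -0.22 with the GC trend removed, and between -0.029 and 0.078 with a replicate left out. Trim34b had between -0.49 and 0.21 with a replicate left out. With the length trend removed, Trim56 had 0.006, Trim33, Trim35, Trim36 and Trim26 lost their calls, Trim9 gained one at 1.45, 3 interferon-linked members outside the chromosome 7 cluster were lower in place of 5, and the medians were -0.55 over all members, -1.17 over the interferon-linked and -0.26 over the others. With the GC trend removed the interferon-linked median was -1.17, Trim12a, Trim23 and Trim36 lost their calls, and Trim3, Trim8 and Trim41 gained one. Without the chromosome 7 cluster, 5 interferon-linked members were lower. With 1 more A at its 3-prime end, the element core stood in 8 interferon-linked members and 1 other. Leaving out a replicate gave medians between -1.48 and -1.22 for the interferon-linked members and between -0.58 and -0.42 for the others. The causes were not tested. Replicate numbers showed no clear pairing of the libraries. Deviations from the group means correlated by 0.105, 0.314 and -0.194 between libraries of the same number. Between libraries of different numbers they correlated by -0.42 to 0.34. With 3 libraries per group this check cannot exclude a pairing. With the replicate number as a block, 38 members and 9723 genes were called, Trim3 being added. Depth limits Trim9, Trim34b and Trim72, whose libraries held few counts each.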

Other observations

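The RING finger genes named Rnf, another large group of ubiquitin ligase genes, were counted by the same rule for scale. Of 66 Rnf genes with at least 10 counts in at least 3 libraries, 26 fell, 18 rose and 22 did not pass the test by edgeR, and the median over them was -0.13 on the log2 scale. The called share was 66.7%, near the 65.7% of all genes tested, and their CPM summed to between 3656 and 3992 with TMAO and to between 4151 and 4391 in control cells. The difference between the Rnf and TRIM genes was not tested.

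The 4 members on chromosome 7 outside the interferon-linked set, Trim3, Trim28, Trim68 and Trim72, did not move together: 1 fell, 1 rose and 2 did not pass the test.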
